A study of Mus musculus with 3 samples.

Results

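The integrin chain genes described here are 9 of the 55536 mouse genes in the deposited gene tables, chosen by gene symbol, with earlier results of these data known: the alpha chain genes Itgae, Itga4, Itgal, Itgav and Itga6 and the beta chain genes Itgb1, Itgb2, Itgb3 and Itgb7. All 9 symbols matched a gene identifier. The libraries hold polyadenylated RNA of regulatory T cells, a Foxp3-expressing T cell lineage that limits immune reactions, labelled as primary cells of 1 male adult mouse aged 4 months. The animal is of the strain Foxp3CreERT2 x Rosa26YFP, which names a tamoxifen-inducible Cre recombinase at the Foxp3 gene and a yellow fluorescent reporter at Rosa26. The labels give bone marrow haematopoietic cells as the origin, and no source used here gives a tamoxifen treatment or a sort gate. The 3 libraries are technical replicates 1, 2 and 3 of biological replicate 1, and are named by that number. They form 1 group with no condition to compare, so nothing below measures differences between animals. Each SD covers the differences between these libraries, and each p-value sets such differences against counting error alone. The labels call the replicates technical, yet marker genes of other cell types differed widely between libraries, as given below. Why they differed was not tested.

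Integrins are receptors of 1 alpha and 1 beta chain that bind matrix proteins and counter-receptors on other cells. A T cell keeps them mostly in a bent, inactive state until signals from the T cell receptor or chemokine receptors bring the adaptors talin and kindlin to the short cytoplasmic tail of the beta chain, which opens the ligand-binding head. Partner choice sets the ligand: alpha L with beta 2 binds ICAM proteins, alpha 4 with beta 7 binds MAdCAM on gut vessels, alpha 4 with beta 1 binds VCAM and fibronectin, alpha E with beta 7 binds E-cadherin of epithelium, alpha 6 with beta 1 binds laminin, and alpha V chains bind proteins with an RGD sequence, among them latent TGF-beta.

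The tails that talin and kindlin bind are encoded at the end of each beta chain's reading frame, so the last 150 coding bases of the 4 beta chain members are shown, without the stop codon, from the GENCODE M21 transcripts on build mm10. Capitals mark in-frame codons of the motif NPxY or of its variant NPxF, which are docking sites of those adaptors. Sites without the proline were not searched for, so the capitals need not mark every docking site. The spliced stretches lie at chr8:128726100-128732085 (plus strand) for Itgb1, chr10:77564715-77565237 (plus) for Itgb2, chr11:104665546-104667142 (plus) for Itgb3 and chr15:102216163-102216516 (minus) for Itgb7.
Itgb1-201: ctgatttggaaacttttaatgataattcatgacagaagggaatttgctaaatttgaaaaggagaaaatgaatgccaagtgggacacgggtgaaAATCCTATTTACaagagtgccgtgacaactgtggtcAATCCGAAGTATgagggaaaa
Itgb2-201: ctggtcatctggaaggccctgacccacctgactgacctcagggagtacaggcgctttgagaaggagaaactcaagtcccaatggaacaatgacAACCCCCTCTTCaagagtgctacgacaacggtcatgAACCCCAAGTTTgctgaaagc
Itgb3-201: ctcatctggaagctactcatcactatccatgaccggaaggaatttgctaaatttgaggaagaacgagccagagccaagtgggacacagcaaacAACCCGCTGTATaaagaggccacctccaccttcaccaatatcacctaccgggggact
Itgb7-201: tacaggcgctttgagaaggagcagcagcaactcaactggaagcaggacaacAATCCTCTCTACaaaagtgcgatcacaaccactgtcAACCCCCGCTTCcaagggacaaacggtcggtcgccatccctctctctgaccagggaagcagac
Itgb1 encoded NPxY at 2 places and Itgb2 encoded NPxF at 2. Itgb7 had 1 of each, and Itgb3 had 1 NPxY. Farther on, the Itgb3 stretch also encodes NITY, which lacks the proline and is left unmarked. An in-frame match on the coding strand occurred in the last 150 coding bases of 173 of 21675 protein-coding genes (0.798%), taking the longest complete coding transcript of each gene.

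Alternative splicing gives the alpha 6 chain tails known as A and B, and gives the alpha L chain forms that differ by a codon. Both bear on the transcript levels below. In the Itga6 lines, capitals mark the coding bases that follow the last shared base, at chr2:71849482-71853638 for Itga6-201, which carries the A tail, and chr2:71849482-71856012 for Itga6-202, which carries the B tail. In the Itgal lines, capitals mark 3 bases, chr7:127317364-127317366, that only Itgal-201 holds, within a stretch that spans a splice junction at chr7:127317343-127321915. All of these lie on the plus strand.
Itga6-201: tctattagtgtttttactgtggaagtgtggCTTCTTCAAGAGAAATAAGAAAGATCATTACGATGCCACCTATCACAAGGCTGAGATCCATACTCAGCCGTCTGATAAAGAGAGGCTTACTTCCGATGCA
Itga6-202: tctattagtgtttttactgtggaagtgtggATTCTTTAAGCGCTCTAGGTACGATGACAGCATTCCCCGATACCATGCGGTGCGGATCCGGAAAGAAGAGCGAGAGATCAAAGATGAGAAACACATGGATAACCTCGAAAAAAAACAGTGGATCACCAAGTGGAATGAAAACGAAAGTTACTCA
Itgal-201: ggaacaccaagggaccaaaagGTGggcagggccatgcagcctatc
Itgal-202: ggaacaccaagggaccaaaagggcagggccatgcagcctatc
The A and B tails share 3119 coding bases before they part, and then run for 100 and 154 bases.

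Depth was 9299054, 9188612 and 8284381 expected counts in libraries 1, 2 and 3. By the share of genes that differed, library 1 stood apart from the others. Over 13071 genes with 30 or more counts, 54.5% differed between the 3 libraries. For pairs the share was 46.4% (libraries 1 and 2), 49.3% (1 and 3) and 17.2% (2 and 3) of genes tested. Each was a chi-square test of homogeneity on TMM-scaled expected counts, with Benjamini-Hochberg adjusted p below 0.05. The plasma cell and erythroid marker sums given below set library 2 apart instead. The 5 regulatory T cell markers and 5 T cell markers were each at 1 TPM or more in every library, the level called detected here, where TPM, a level per length, counts transcripts out of a fixed sum for each library. Foxp3 had 27.6, 43.7 and 47.1 TPM in libraries 1, 2 and 3, and Il2ra 211, 332 and 369 TPM. The other regulatory T cell markers were not lowest in library 1 by a like margin. Ikzf2 had 396, 467 and 412 TPM, Ctla4 210, 230 and 210, and Tnfrsf18, highest in library 1, 761, 650 and 655. The 5 T cell markers summed to 10729, 9914 and 8937 TPM. Markers of other cells were present as well: all 6 B cell markers were detected, with summed levels of 119 to 197 TPM, while 5 plasma cell markers summed to 1989, 222 and 1399 TPM and 7 erythroid markers to 1688, 9.02 and 1499.8 TPM. Of 7 macrophage and monocyte markers 4 were detected, with sums of 18.7 to 42.0 TPM, and of 6 CD8 T and NK cell markers 4, with sums of 30.4 to 38.0 TPM. None of 7 neutrophil markers was detected in every library, though their sums were 45.7, 0.60 and 4.09 TPM, and Elane had 0 counts. Of 5 dendritic cell markers 1 was detected, with sums of 2.84 to 5.25 TPM. B cells and myeloid cells carry several of the same integrin chains, and their part in the levels below was not tested. In bulk RNA, fewer cells of a type and less RNA per cell cannot be told apart.

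All 9 integrin chain genes were detected in every library. The leukocyte beta chain was the highest. Itgb2, the beta chain shared by all leukocyte beta 2 integrins (ENSMUSG00000000290.13, chr10:77530252-77565708), had 399.9, 611 and 586 TPM in libraries 1, 2 and 3, a mean of 532 ± 115 TPM (SD, n = 3). It ranked 220 among 22028 protein-coding genes. Its partner Itgal, the alpha chain of LFA-1 (ENSMUSG00000030830.18, chr7:127296260-127335138), had 118, 235 and 220.2 TPM, a mean of 191 ± 63.9 TPM. Library 1 was the low one for both genes, and libraries 2 and 3 lay close together.

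Of the chains of mucosal homing and retention the beta chain was again the higher one. Itgb7, the shared beta chain of the alpha 4 beta 7 and alpha E beta 7 receptors (ENSMUSG00000001281.10, chr15:102215995-102231944), had 249, 265 and 234 TPM. Its mean of 249.6 ± 15.8 TPM had the smallest relative spread of the 9 genes by gene TPM, a coefficient of variation of 6.33%. By TMM-scaled counts it did not: the highest library over the lowest was 1.22 for Itgb7, 1.13 for Itgb1 and 1.21 for Itgb2. Itga4 (ENSMUSG00000027009.18, chr2:79255426-79333123), the alpha chain that pairs with beta 7 or beta 1, had 117, 177 and 175 TPM, a mean of 156 ± 34.1 TPM. Itgae, which encodes CD103 and holds T cells at epithelium (ENSMUSG00000005947.11, chr11:73090583-73147446), had 55.6, 99.8 and 123 TPM, a mean of 92.8 ± 34.3 TPM. Library 3 had the most Itgae and the least Itgb7, so the chains of this pair did not follow the same order of libraries.

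The other chains that bind matrix proteins, Itgb1, Itga6, Itgav and Itgb3, were lower by gene TPM than the chains given above. Among those above, Itga4 paired with beta 1 also binds a matrix protein, fibronectin. Itgb1, the beta chain of most matrix-binding integrins (ENSMUSG00000025809.15, chr8:128685654-128733200), had 37.2, 52.9 and 46.5 TPM, a mean of 45.5 ± 7.89 TPM. Itga6, the laminin-binding chain (ENSMUSG00000027111.15, chr2:71745616-71858416), had 27.5, 39.1 and 49.6 TPM, a mean of 38.8 ± 11.05 TPM. Itgav, the chain that binds RGD ligands (ENSMUSG00000027087.11, chr2:83724397-83806916), had 28.7, 37.0 and 39.6 TPM, a mean of 35.1 ± 5.69 TPM. These 3 genes overlapped in range, while Itgb3 lay below all of them in every library. Itgb3, a partner of alpha V that is best known from platelets (ENSMUSG00000020689.4, chr11:104608000-104670476), had 7.17, 12.3 and 16.3 TPM, a mean of 11.9 ± 4.60 TPM, and ranked 6448 among protein-coding genes. None of the 7 platelet and megakaryocyte markers was detected: Itga2b, the platelet partner of beta 3, had 0.64, 1.19 and 0.60 TPM, Gp6 had 0 counts, and the 7 markers summed to 0.830, 1.53 and 2.80 TPM.

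**Figure D1:**
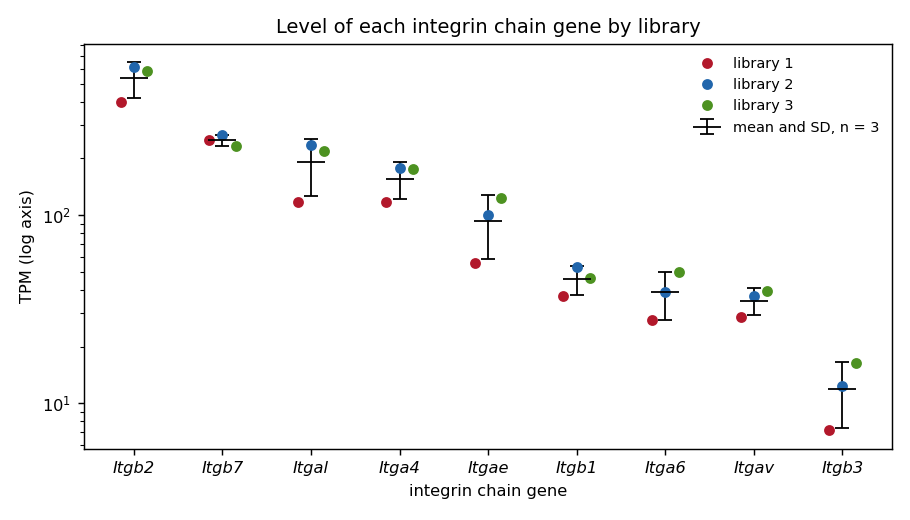
TPM of each integrin chain gene (log axis) in libraries 1, 2 and 3, shown as coloured points, with the mean and SD over the 3 libraries as a black bar. Itgb2 stands highest at 532 TPM and Itgb3 lowest at 11.9 TPM, and library 1 is the lowest point for 8 of the 9 genes.

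By mean TPM the order was Itgb2, Itgb7, Itgal, Itga4, Itgae, Itgb1, Itga6, Itgav and Itgb3. The ranges of the libraries did not overlap between Itgb2 and Itgb7, between Itgae and Itgb1, or between Itgav and Itgb3. The other neighbours in the order overlapped in range. Within every library, Itgb7 nevertheless stood above Itgal, Itgal above Itga4 and Itga4 above Itgae, whereas Itgb1 stood above Itga6, and Itga6 above Itgav, in 2 of the 3. In the second transcript table Itgav, at 25.6 ± 4.10 TPM (SD, n = 3), stood instead above Itgb1 at 22.9 ± 4.23 TPM in each library, and above Itga6 at 20.9 ± 6.30 TPM in libraries 1 and 2. Against 18 further integrin chain genes, the 9 members held 97.7% ± 0.188 (SD, n = 3) of the summed TPM of all 27 chains, and Itgb2 alone held 38.3% ± 0.757.

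Gene TPM sums every annotated transcript, and for several chains most of it came from transcripts that do not encode the whole protein. The 9 genes have 46 transcripts in GENCODE M21, from 2 for Itgae and Itgb3 to 9 for Itgav. A transcript was called complete coding when it is annotated as protein-coding with no tag for an unfinished end, a division added after the data were seen. The complete coding share of TPM was 100% for Itgb1 and Itgb3 in each library, 98.0% ± 0.660 for Itgal and 94.6% ± 0.547 for Itgb2 (SD, n = 3). It was 78.6% ± 0.597 for Itgae, 58.8% ± 5.79 for Itgb7, 23.7% ± 2.73 for Itga4, 18.2% ± 1.62 for Itga6 and 11.4% ± 1.504 for Itgav. Over detected protein-coding genes the median share was 80.8%, and 22.9% of them lay below 50%, as 3 of the 9 members did.

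**Figure D2:**
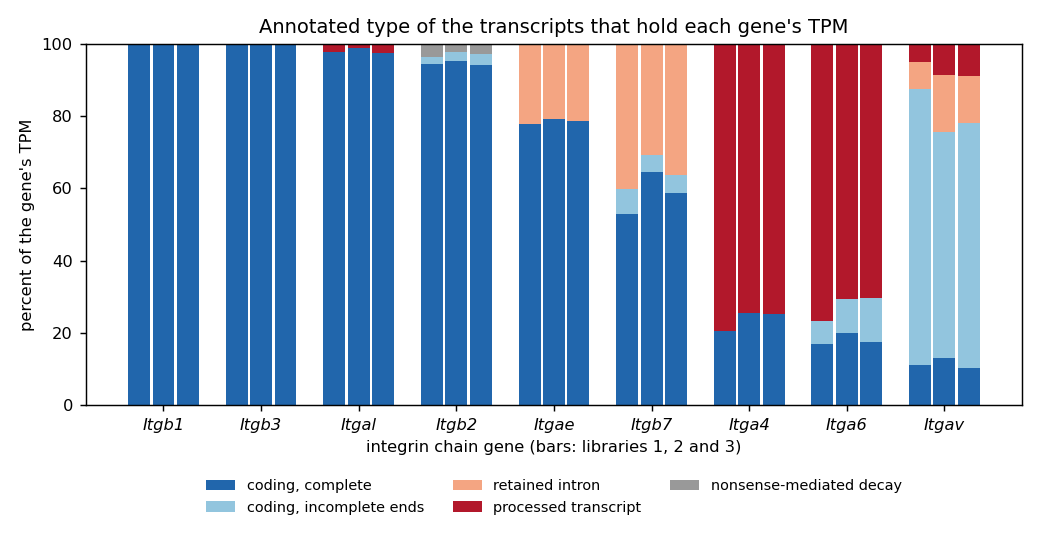
Percent of each gene's TPM (vertical axis) held by transcripts of each annotated type, as stacked bars for libraries 1, 2 and 3. Itgb1 and Itgb3 are wholly complete coding, whereas processed transcripts hold most of Itga4 and Itga6 and a coding transcript with an incomplete end holds most of Itgav.

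In Itga4, 4 processed transcripts, a class with no annotated reading frame, took 79.4%, 74.5% and 74.9% of TPM in libraries 1, 2 and 3. The leading one was Itga4-205 (chr2:79255426-79257852), a 2314-base transcript at the start of the gene, with 33.4%, 29.8% and 27.7%. Next came Itga4-203 with 25.4%, 21.9% and 24.1%, and Itga4-202 with 10.7%, 15.6% and 15.3%. The coding Itga4-201 is 9767 bases long, and its share of TPM, 20.6%, 25.5% and 25.1%, rested on 1865, 2979 and 2619 expected counts. By counts rather than per length it therefore led the gene, with 59.6% ± 3.27 of the counts (SD, n = 3). Itga4 overlaps Cerkl on the opposite strand, Itgae overlaps Haspin there, and Itgav and Itga6 overlap several smaller gene models. Strand use in the counting was not given in the sources used here, so reads of such neighbours may not be told apart.

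Itgav showed the same contrast between levels per length and counts. Itgav-205, a transcript of 463 bases at the gene's end (chr2:83802921-83806916) whose coding start is not annotated, took 76.7%, 62.4% and 68.0% of TPM from 51.2, 45.5 and 47.7 counts. The full-length Itgav-202, of 6788 bases, took 10.2% ± 0.487 of TPM (SD, n = 3) and 51.5% ± 3.87 of the counts. The retained intron Itgav-203 took 6.49%, 13.2% and 11.2% of TPM. Itgav-201, the other full-length form, had 19.6, 41.2 and 0 counts with posterior SDs of 26.1, 29.7 and 20.5 counts, so that its presence was not resolved. In the second deposited transcript table the 2 forms changed places: Itgav-201 held 8.81% ± 2.40 of TPM and Itgav-202 0.848% ± 1.46.

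For Itga6 the leading transcript was the processed Itga6-203, of 2721 bases at the gene's end (chr2:71849029-71858416), with 68.3%, 61.0% and 51.3% of TPM in libraries 1, 2 and 3. Of the tails printed above, the A form was assigned counts and the B form none. The span of Itga6-203 covers the coding ends of both tails, and that transcript held 387, 417 and 403 counts. Whether reads of either tail were assigned to it was not tested, so these values do not show that the B tail was absent. Itga6-201 held 16.9%, 19.99% and 17.6% of TPM from 156, 222 and 224 counts, and Itga6-202, with the B tail, was at 0% in each library, with posterior SDs of 6.57 to 8.22 counts. The second transcript table likewise listed Itga6-202 at 0%, and a level of a few counts was not detectable at this depth. Itga6-207, a coding transcript with an unannotated start, held a further 6.44%, 9.41% and 12.04%. It ends at chr2:71854951, past the A tail's coding end at chr2:71853638 and short of the B tail's at chr2:71856012.

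Itgal was almost wholly coding, but not wholly full-length. Itgal-203, which starts inside the gene (chr7:127309518-127335137) and lacks the first coding exons, took 46.6%, 28.7% and 26.4% of TPM in libraries 1, 2 and 3. The full-length pair Itgal-201 and Itgal-202 took 51.0%, 69.9% and 71.0% together. The 3-base difference printed above was the least certain split: Itgal-201 held 36.8%, 36.8% and 47.4% and Itgal-202 held 14.3%, 33.1% and 23.6%, with posterior SDs of 201 to 294 counts on each. The second transcript table gave Itgal-201 56.7% ± 3.31 and Itgal-202 16.05% ± 11.2 (SD, n = 3). Both tables put Itgal-201 above Itgal-202 in each library.

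Retained introns made up the rest of Itgae and much of Itgb7. Itgae-202 took 22.1%, 20.9% and 21.3% of Itgae TPM, nearly equal across libraries. Itgb7-204, a 449-base retained intron at the gene's end (chr15:102215998-102216650), took 40.0%, 30.8% and 36.4% of Itgb7 TPM but only 6.22% ± 1.31 of its counts (SD, n = 3). The coding Itgb7-201, whose tail is printed above, held 92.8% ± 1.59 of the counts. Itgb2-201 led its gene with 94.4%, 95.2% and 94.2% of TPM, and Itgb1-201 and Itgb3-201 were the sole transcripts of their genes with any TPM. In the second transcript table Itgb1-201 held 98.96%, 100% and 93.9% in libraries 1, 2 and 3, and Itgb3-201 held 100% in each.

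**Figure D3:**
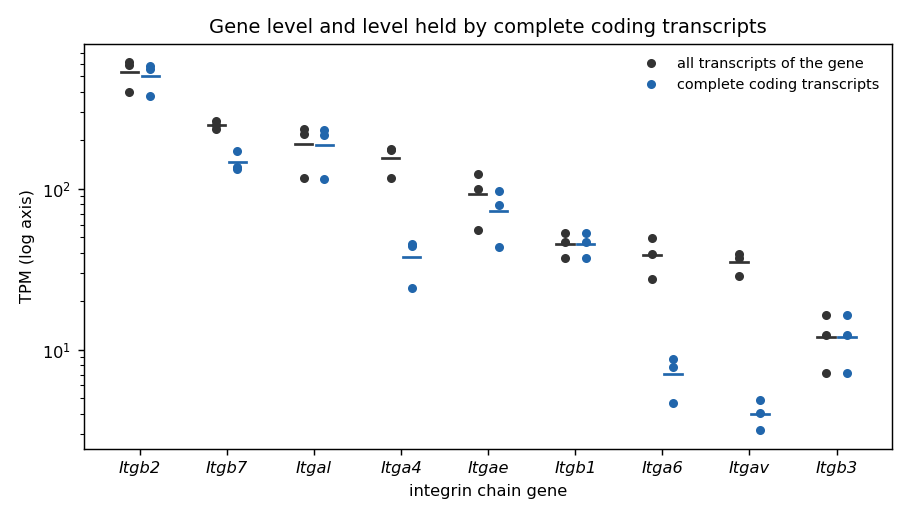
TPM of each gene over all its transcripts (black points, 1 per library, line at the mean) beside the TPM held by its complete coding transcripts (blue), on a log axis. The 2 levels coincide for Itgb1 and Itgb3 and part most for Itgav, 35.1 against 4.01 TPM.

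Counted over complete coding transcripts only, the order of the chains changed. Itgb2 stayed first at 504 ± 110 TPM (SD, n = 3), followed by Itgal at 187 ± 63.0, Itgb7 at 147 ± 21.3, Itgae at 73.1 ± 27.2 and Itgb1 at 45.5 ± 7.89 TPM. Itga4 followed at 37.7 ± 11.8, Itgb3 at 11.9 ± 4.60, Itga6 at 7.06 ± 2.13 and Itgav at 4.01 ± 0.845 TPM. On this scale Itgae exceeded Itga4 in every library and Itgb3 exceeded Itgav in every library, both the reverse of the order by gene TPM. The Itgal level includes the shorter Itgal-203. Itgal-201 and Itgal-202 alone had 60.0, 164 and 156 TPM, a mean of 127 ± 58.0 TPM, below the complete coding level of Itgb7 in libraries 1 and 2 and above it in library 3.

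Ratios of partner chains within a library do not depend on the scaling of that library. They do not remove differences between libraries that go with gene length. Mean transcript length was 3841 bases for Itgae, 3987 for Itga4 and 1763 for Itgb7, and 4668 for Itgal and 2899 for Itgb2. Scaling within bins of gene length moved the log2 deviation in library 1 from -0.45 to -0.26 for Itgae and from -0.47 to -0.28 for Itgal. Its bearing on the ratios was not tested. Itgal was below Itgb2 throughout, with an alpha to beta ratio of TPM of 0.294, 0.384 and 0.375 in libraries 1, 2 and 3, and the ratio was 0.364 ± 0.0516 (SD, n = 3) over complete coding transcripts. Without the shorter Itgal-203 it was 0.159, 0.282 and 0.283, a mean of 0.241 ± 0.0714, as added after the data were seen. Itgae over Itgb7 was 0.223, 0.376 and 0.526, and Itga4 over Itgb7 was 0.469, 0.666 and 0.748. Over complete coding transcripts the first was 0.328, 0.461 and 0.704 and the second 0.182, 0.264 and 0.319. Both alpha chains were below the beta 7 chain in each library on both scales. The beta chain of the mucosal receptors outweighed that of the matrix receptors: Itgb7 over Itgb1 was 6.71, 5.02 and 5.03, and 3.25 ± 0.298 over complete coding transcripts.

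Ratios that involve Itga4, Itga6 or Itgav depended on which transcripts were counted. Itga4 over Itgb1 was 3.14, 3.34 and 3.76 by gene TPM and 0.648, 0.854 and 0.944 over complete coding transcripts. Itgav over Itgb3 was 4.00, 3.00 and 2.42 by gene TPM and 0.439, 0.393 and 0.247 over complete coding transcripts. Itga6 over Itgb1 was 0.849 ± 0.189 and 0.154 ± 0.0314 on the same 2 scales, and Itgav over Itgb1 was 0.774 ± 0.0761 and 0.0877 ± 0.00351 (SD, n = 3). For Itga4 and Itgb1, and for Itgav and Itgb3, the chain that was higher changed with the scale. For Itgav and Itgb1 it changed with the table: in the second transcript table their ratio was 1.16, 1.10 and 1.11.

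All 9 members passed the test of differences between libraries, in which 54.5% of all genes passed. None of the 9 differed by 2-fold or more in scaled counts, where 8.79% of genes both passed and did so. In 8 members library 1 had the lowest scaled count, as did 40.4% of all genes tested, and 23.9% of all genes tested both passed and were lowest there. For Itgb1, 1 of the 8, it lay level with library 3, at a ratio of 0.995 (exact binomial 95% interval 0.913 to 1.08). The median deviation of the members from the mean of the libraries was -0.21, 0.11 and 0.13 on the log2 scale in libraries 1, 2 and 3, beside medians of at most 0.01 in size over all genes tested. The 8986 genes within the members' range of mean transcript length, 1498 to 5784 bases, had a median deviation of -0.06 in library 1. With scaling within 20 bins of gene length, 9 members and 44.6% of all genes passed, and the members' medians were -0.11, 0.04 and 0.08. Library 1 was then lowest for 7 members, since Itgb1 moved from -0.06 to 0.12 in it.

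Itgal, Itgae and Itgb3 had the widest ratios between libraries with TMM scaling. With length bins, the ratio of the highest to the lowest library was 1.48 for Itgav, 1.47 for Itgae, 1.43 for Itgb3 and 1.39 for Itgal. For Itgal, whose expected counts were 4100, 7421 and 6246, library 1 had 0.594 times the scaled counts of library 2 (interval 0.571 to 0.617), and against library 3 the ratio was 0.629 (0.604 to 0.654), with an adjusted p of 1.13e-172 by the chi-square test. For Itgae, with 1647, 2515 and 2805 counts, library 1 had 0.562 times the scaled counts of library 3 (0.529 to 0.598) and library 2 had 0.799 times (0.757 to 0.844), with an adjusted p of 2.49e-75 by the chi-square test. Itgb3 had 325, 475 and 570 counts, and the same ratios to library 3 were 0.546 (0.475 to 0.627) and 0.743 (0.656 to 0.840), with an adjusted p of 6.07e-17 by the chi-square test. Itgae and Itgb3 thus ran in the same order, library 1 lowest and library 3 highest, and so did Itga6, with 603, 742 and 782 counts and a ratio of 0.738 (0.663 to 0.822) between libraries 1 and 3. All these intervals and p-values allow for counting error alone. None of them allows for the further spread between libraries, a common coefficient of variation of 20.2% over genes (edgeR). Amplified reads also carry no molecular identifiers here and cannot be taken for separate molecules.

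**Figure D4:**
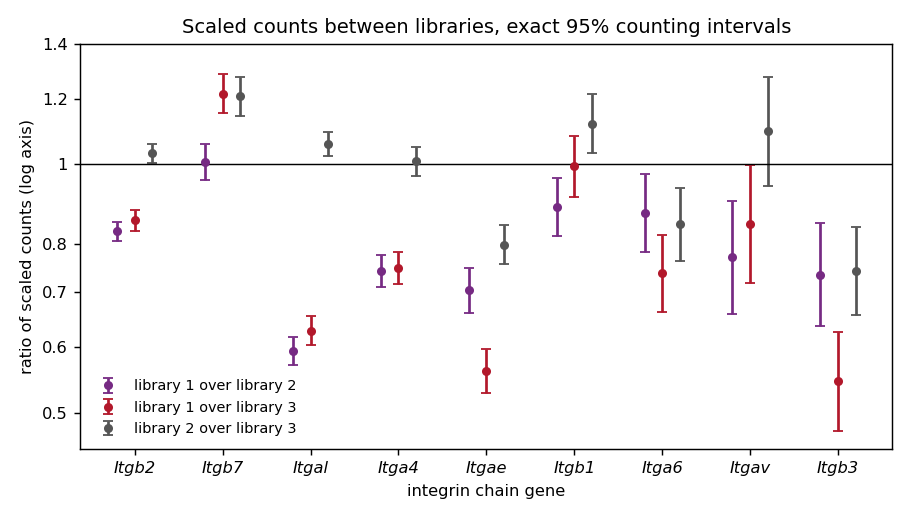
Ratio of scaled counts between each pair of libraries (log axis) for the 9 genes, with exact binomial 95% intervals for counting error. Itgal, Itgae and Itgb3 lie farthest below 1 in library 1, while Itgb7 is above 1 against library 3 and Itga4 is at 1.01 between libraries 2 and 3.

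Itga4 and Itgb2 were low in library 1 alone with TMM scaling. Itga4 had 0.742 times (0.710 to 0.776) the scaled counts of library 2 there, and libraries 2 and 3 differed by a ratio of 1.01 (0.968 to 1.05). Itgb2 had 0.829 times (0.806 to 0.853) those of library 2, and libraries 2 and 3 differed by a ratio of 1.03 (1.00 to 1.06). Scaling within length bins moved the log2 deviation in library 1 from -0.28 to -0.07 for Itga4 and from -0.17 to -0.07 for Itgb2. Itgb7 went the other way, with 1.22 times (1.15 to 1.29) the scaled counts of library 3 in library 1 and 1.21 times (1.15 to 1.28) in library 2. With TMM scaling Itgb1 and Itgav had the highest adjusted p of the members, 0.00876 and 0.0102 by the chi-square test, with ratios between the extreme libraries of 1.13 and 1.29. With length bins Itga4 had the highest, an adjusted p of 0.00475 by the chi-square test at a ratio of 1.08. Without library 1, 6 members passed, and Itga4 (adjusted p = 0.827), Itgb2 (0.0999) and Itgav (0.444) did not by the chi-square test, where 17.2% of all genes passed. Without library 2, 7 members and 49.3% of all genes passed, and Itgb1 and Itgav did not (adjusted p 0.934 and 0.0832 by the chi-square test). Without library 3, 8 members and 46.4% of all genes passed, and Itgb7 did not (adjusted p 0.845 by the chi-square test).

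The deposited whole-number gene counts, made with the older M4 annotation, gave other levels for most members. The ratio of their CPM to that of the expected counts, with the median gene set to 1, was 1.60 ± 0.0250 for Itgb7, 1.505 ± 0.00699 for Itgae and 1.37 ± 0.00902 for Itgb2 (SD, n = 3). Itgb1 at 0.998 ± 0.00819 and Itgal at 0.998 ± 0.0507 lay at the median. Itga4 at 0.662 ± 0.0218, Itga6 at 0.625 ± 0.0635, Itgav at 0.520 ± 0.0264 and Itgb3 at 0.410 ± 0.00426 lay below it. Itgb3, with 159, 234 and 289 whole-number counts, was the 1 member that differed by more than 2-fold in every library, as 13.8% of 10091 genes compared did. Of the 4 members below the median, 3 are those whose complete coding share of TPM was below 50%, and the fourth, Itgb3, had a single transcript with any TPM. The order of libraries in the M4 counts was again library 1 lowest and library 3 highest for Itgae, Itgb3 and Itga6.

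**Figure D5:**
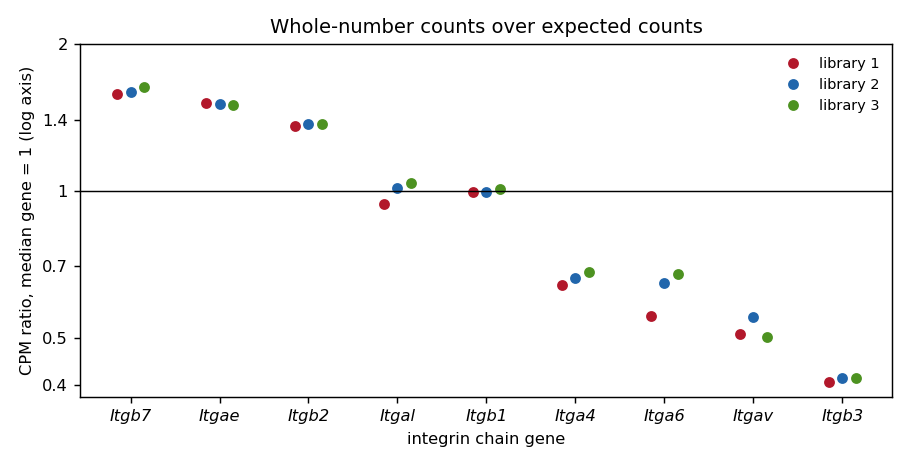
Ratio of CPM from the whole-number gene counts to CPM from the expected counts, centred on the median gene (log axis), for each gene and library. Itgb7, Itgae and Itgb2 lie above 1 and Itga4, Itga6, Itgav and Itgb3 below it in all 3 libraries.

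Of 18 other integrin chain genes 4 were detected. Itgb8, the alpha V partner that activates latent TGF-beta, was the highest with 12.6, 22.1 and 18.0 TPM, a range that overlaps that of Itgb3 but a level above it in each library. Itga2, a collagen-binding chain, had 7.66, 6.19 and 4.34 TPM, Itga7, a laminin-binding chain, 1.28, 2.47 and 2.19 TPM, and Itga5, the fibronectin-binding chain, 1.21, 3.03 and 1.64 TPM. Itgb2l had 0 counts in all 3 libraries. The myeloid chains Itgam and Itgax were not detected, at 0.720 ± 0.434 and 0.487 ± 0.414 TPM (SD, n = 3), and neither were the epithelial chains Itgb4 and Itgb6, at 0.0167 ± 0.0153 and 0.0533 ± 0.0924 TPM.

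Genes that switch integrins on include paralogs known from blood cells and from other tissues. Of 17 activators and tail-binding proteins 14 were detected, led by the adaptors Skap1 at 569.7 ± 24.0 TPM (SD, n = 3) and Fyb at 534 ± 58.5 TPM and by the kindlin of blood cells, Fermt3, at 348 ± 59.5 TPM. The other kindlins Fermt1 and Fermt2 were at 0.0100 ± 0.0173 and 0.0167 ± 0.0289 TPM, and the talin gene Tln2 was at 0.0633 ± 0.0208 TPM, while Tln1, the main talin of leukocytes, had 54.0, 81.1 and 85.3 TPM. Of the 14 genes of that list with enough counts 13 differed between libraries, beside 54.5% of all genes tested. Among all genes with 100 or more counts, 6672 of 10674 differed. Of 9 inactivators and tail competitors 8 were detected, led by Cytip at 347 ± 46.0 TPM, Flna, the filamin that competes with talin, at 190.3 ± 59.3 TPM and Rasa3, an inhibitor of Rap1, at 132 ± 37.6 TPM. Rap1gap was not detected, at 0.40 ± 0.346 TPM. Of the 8 tested, 6 differed between libraries, beside the same 54.5% of all genes.

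Among 19 genes of focal adhesions and outside-in signalling 14 were detected, led by the adaptor kinase gene Ilk at 143, 155 and 167 TPM, the docking protein gene Nedd9 at 103 ± 21.7 and the parvin gene Parvg at 103 ± 12.6 TPM (SD, n = 3). Parva had 0 counts. The kinase gene Ptk2b stood at 97.1 ± 16.5 TPM, whereas its relative Ptk2 was not detected, with 0.75 TPM in library 1 and a mean of 1.15 ± 0.352 TPM. Of the 16 genes tested 11 differed between libraries. Of 19 ligand genes 5 were detected: the LFA-1 ligands Icam2 at 104 ± 4.65 TPM and Icam1 at 76.6 ± 10.2, Lrrc32, which encodes GARP and holds latent TGF-beta on the cell surface, at 65.8 ± 24.3, Vcam1 at 5.46 ± 1.52 and Tgfb1 at 4.86 ± 1.23 TPM. Cdh1, which encodes the alpha E beta 7 ligand E-cadherin, and Madcam1, the alpha 4 beta 7 ligand, were not detected, at 0.440 ± 0.178 and 0.540 ± 0.322 TPM. Of the 7 ligand genes tested 2 differed between libraries. These lists, like the members, were chosen with earlier results of the same data known, and their counts are given beside the 54.5% of all genes that passed.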

How the data were processed

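Polyadenylated RNA of regulatory T cells was measured in 3 libraries, and 4 tables per library were used. The authors deposited a gene table and a transcript table with expected counts, TPM (per length, with the same sum in each library) and, for transcripts, the percent of the gene's TPM, made on mm10 with GENCODE M21 per the deposited readme. They also deposited another transcript table of estimated counts and TPM, derived from reads and a transcript index, and a gene table of whole-number counts on GENCODE M4. The posterior SD of each count, per the file headers, is the authors' estimate. Aligners, quantifiers, versions and strand use were not given in the sources used here. Column names match RSEM output in the first tables and kallisto output in the other transcript table. In the latter Gm29013 and Mir6236 hold 19.1% to 26.1% and 4.29% to 4.54% of TPM, which lowers its other values, so levels were also rescaled.

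All 55536 mouse genes matched the M21 annotation. Other entries, 0.117% to 0.135% of the counts, were left out. Expected counts were rounded and tested per gene, from 30 counts upward, by a chi-square test of homogeneity against TMM-scaled totals (edgeR 4.0.16, R 4.3.3), with Benjamini-Hochberg adjustment over all genes. This test was checked on simulated data with counting noise alone. The real libraries had a common coefficient of variation of 20.2% beyond counting noise (edgeR). That check therefore cannot show that the p-values hold for these libraries. Log2 deviations used a pseudocount of 0.5 counts. Alternatives were DESeq2 1.42.0 size factors, library totals, length bins, other count minimums, the M4 counts and each library left out. Python 3.11.15, numpy 2.4.6, scipy 1.17.1 and pandas 2.3.3 were used. All 9 members were named. Of each gene list of the pathway the 3 highest and up to 3 undetected genes were named, with each integrin chain detected. Tln1, Ptk2b, Vcam1, Tgfb1, Itgam, Itgax, Itgb4 and Itgb6 were named after their values were seen. Transcripts were named from a mean share of 10% upward; Itga6-202, Itga6-207 and Itgav-201, below it, were chosen after their values were seen. Protein tails were planned, and coding sequence is shown in their place. No gene was named for likeness of pattern, since 3 technical libraries give none. The members and lists were chosen with earlier results of these data known.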

Additional observations from a re-analysis of the deposited data

How the results depend on the processing

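The 9 members were detected at 0.5, 1 and 5 TPM, with posterior mean TPM, in the second transcript table and without each library in turn. Of the 18 other chains 4 were detected at 1 TPM, 1 at 5 TPM and 13 with posterior mean TPM, which is above 0 for genes with no counts. All 9 members passed the test of differences with DESeq2 size factors, library totals, length bins, minimums of 1 and 100 counts and the M4 counts, and 6 to 8 passed with 1 library left out. Over all genes, 7122 of 13071 passed, with 7110 by DESeq2 size factors, 7350 by library totals and 5833 by length bins. At minimums of 1 and 100 counts 7000 of 24803 and 6672 of 10674 genes passed, and with the M4 counts 6966 of 10935. The fewest genes passed without library 1, 2106 of 12273. Without library 2, 6012 of 12204 passed, and without library 3, 5711 of 12302. Itgb1 in library 1 turned from below to above the mean of the libraries with length bins. Complete coding levels and rescaled levels were added after the data were seen: the rescaled second transcript table gave Itgb2 403 and Itgb3 9.14 TPM. Of single-gene levels, ratios and transcript shares under other settings, 21, 10 and 7 moved by the spread between libraries or more, and 43, 36 and 38 did not. Genes near 1 TPM rest on few counts, and with 1 biological sample no difference between animals or conditions can be tested. No paired analysis was possible because the libraries form 1 group.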
